A study of Homo sapiens with 20 samples.

Results

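The expression of 10 genes of the transforming growth factor beta (TGF-β) pathway was followed in human melanoma cells with and without silencing of the transcription factor FRA1, together with the FRA1 peaks near these genes. The genes were chosen by name from a list of TGF-β ligands, receptors and targets, namely TGFB1, TGFB2, LTBP1, LTBP2, THBS1, TGFBR1, TGFBR2, SMAD3, SKIL and TGFBI. Earlier results of these data were known when they were chosen. All 10 were found among the 58870 genes of the RNA-seq table, 9 by their name and TGFB1 by its gene identifier (ENSG00000105329.9), because its row carries the name AC011462.1. All 10 passed the expression filter in both cell lines. A consensus peak was counted as near when it overlapped one of the genes or lay within 10 kb of either end, and 60 of the 54563 peaks met this.

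A375 and 1205Lu are human melanoma cell lines. Cells of each line received non-targeting siRNAs (si-NT) or siRNAs against human FRA1 (si-FRA1), with 3 RNA-seq samples in each of the 4 groups and 12 in all. For FRA1 binding, each line had 3 Cut&Run samples made with a FRA1 antibody and 1 made with IgG, a non-specific antibody that serves as the background. The Cut&Run samples carry no label of siRNA treatment. The time and dose of the siRNAs and the origin of the replicates from separate cultures are not given in the sources used here, so p-values measure the spread between these samples, which may be technical.

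The RNA-seq samples held between 20573412 and 32518903 counts. The FOSL1 mRNA, which encodes FRA1, averaged 414.2 counts per 1000000 (CPM) in the A375 si-NT samples and 25.7 CPM in the A375 si-FRA1 samples. In 1205Lu cells it averaged 483.5 and 68.3 CPM. The melanocyte lineage markers differed between the lines, with MITF at 52.1 and SOX10 at 43.9 CPM in A375 si-NT samples against 3.54 and 911.8 CPM in 1205Lu si-NT samples. S100B averaged 0.991 CPM in A375 si-NT samples and 426.4 CPM in 1205Lu si-NT samples. The pigment genes PMEL, MLANA, TYR, TYRP1 and DCT were at most 1.42 CPM in every sample. Of the markers of other cell types, 6 fibroblast genes had summed levels between 33.2 and 36.1 CPM with si-NT and between 70.7 and 72.5 CPM with si-FRA1 in A375 cells, and between 9.06 and 11.3 and between 17.1 and 19.2 CPM in 1205Lu cells. COL1A1 and PDGFRB made up most of these sums. In A375 cells the mean of COL3A1 was 1.11 CPM with si-NT and 9.45 CPM with si-FRA1, that of LUM 0.568 and 1.79 CPM, and that of DCN 0.236 and 0.615 CPM. That of COL1A2 was lower with si-FRA1, at 0.449 and 0.343 CPM. In 1205Lu cells the means of COL1A2, COL3A1, LUM and DCN were all below 1 CPM and lower with si-FRA1. There PDGFRB averaged 6.51 CPM with si-NT and 14.9 CPM with si-FRA1, and COL1A1 1.66 and 2.2 CPM. LUM and DCN were at most 1.92 CPM in every sample of either line. The summed level of 3 immune genes lay between 77.6 and 79.5 CPM with si-NT and between 56.0 and 60.2 CPM with si-FRA1 in A375 cells, and between 17.1 and 18.3 and between 7.13 and 8.40 CPM in 1205Lu cells. It was carried by CD68, with PTPRC and CD3E below 1 CPM. The sum of 5 keratinocyte genes ranged from 34.9 to 46.0 CPM over all groups and came from KRT10, with KRT5, KRT14, KRT1 and CDH1 below 1 CPM. The sum of 3 endothelial genes ranged from 1.58 to 2.72 CPM. The part of these marker levels in the results below was not tested.

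TGF-β ligands are secreted in a latent form, bound to a latency peptide and often to a latent TGF-β binding protein that anchors the complex in the extracellular matrix. Proteins such as thrombospondin and integrins release the active ligand, which brings the type II and type I receptors together. The type I receptor then phosphorylates SMAD2 and SMAD3, which enter the nucleus with SMAD4 and change transcription, often at sites shared with AP-1, the family of FOS and JUN dimers to which FRA1 belongs. In melanoma, TGF-β signaling has been linked to growth arrest as well as to invasion.

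The sequences below show the AP-1 letters, TGAGTCA or its reverse complement TGACTCA, at the strongest FRA1 peaks near these genes. For each gene with such letters in the peak with its highest summed FRA1 count in A375 cells, the match closest to the centre of the peak is given in capitals with 30 bases to either side, on the plus strand of GRCh38. All 6 windows lie outside annotated untranslated regions.
TGFB2 intron, chr1:218377413-218377479: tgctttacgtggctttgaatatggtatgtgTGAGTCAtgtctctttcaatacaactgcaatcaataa
LTBP1 intron, chr2:33070033-33070099: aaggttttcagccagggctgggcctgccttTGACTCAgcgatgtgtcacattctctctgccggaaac
LTBP2 upstream, chr14:74619762-74619828: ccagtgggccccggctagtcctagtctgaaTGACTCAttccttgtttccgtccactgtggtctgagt
TGFBR2 intron, chr3:30659311-30659377: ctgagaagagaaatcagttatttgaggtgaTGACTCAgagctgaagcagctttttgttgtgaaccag
SMAD3 intron, chr15:67150223-67150289: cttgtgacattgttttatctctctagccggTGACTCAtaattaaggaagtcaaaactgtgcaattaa
TGFBI, peak over the start of a shorter transcript, chr5:136058733-136058799: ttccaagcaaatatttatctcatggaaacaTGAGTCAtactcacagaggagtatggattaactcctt

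Most of these genes were higher after FRA1 silencing in both cell lines. In A375 cells TGFB1, TGFB2, THBS1, TGFBR1, TGFBR2, SKIL and TGFBI rose, LTBP1 fell, and LTBP2 and SMAD3 did not pass the test. In 1205Lu cells TGFB1, THBS1, TGFBR1, TGFBR2, SMAD3, SKIL and TGFBI rose, LTBP1 and LTBP2 fell, and TGFB2 did not pass the test. Changes of over 2-fold were those of TGFB2 and SKIL in A375 cells and of THBS1 in 1205Lu cells. The threshold was an adjusted p of 0.05, from the quasi-likelihood test of edgeR and the Benjamini-Hochberg method over all genes tested in that line, 16899 in A375 and 17136 in 1205Lu cells, and all log2 fold changes upon silencing are si-FRA1 over si-NT.

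The counts that follow are not independent evidence of a direction, because the 10 genes were chosen with earlier results of these data known. The 7 of 10 genes called higher in A375 cells stand beside 25.7% of all genes tested, and the 1 called lower beside 25.1%. In 1205Lu cells 7 of 10 were called higher and 2 lower, beside 20.6% and 19.9% of all genes tested. Past 2-fold and higher were 2 of 10 in A375 cells (2.77% of all genes tested) and 1 of 10 in 1205Lu cells (1.09%). The median log2 fold change of the 10 genes was 0.40 in A375 cells and 0.30 in 1205Lu cells, and that of all genes tested was 0.00 in each line. Every si-FRA1 sample lay above every si-NT sample for 8 of 10 genes in A375 cells, as for 29.2% of all genes tested. None of the 10 had all si-FRA1 samples below all si-NT samples in A375 cells, which 27.6% of all genes tested had. In 1205Lu cells 6 of 10 lay wholly above and 2 wholly below, beside 26.2% and 23.2% of all genes tested.

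**Figure D1:**
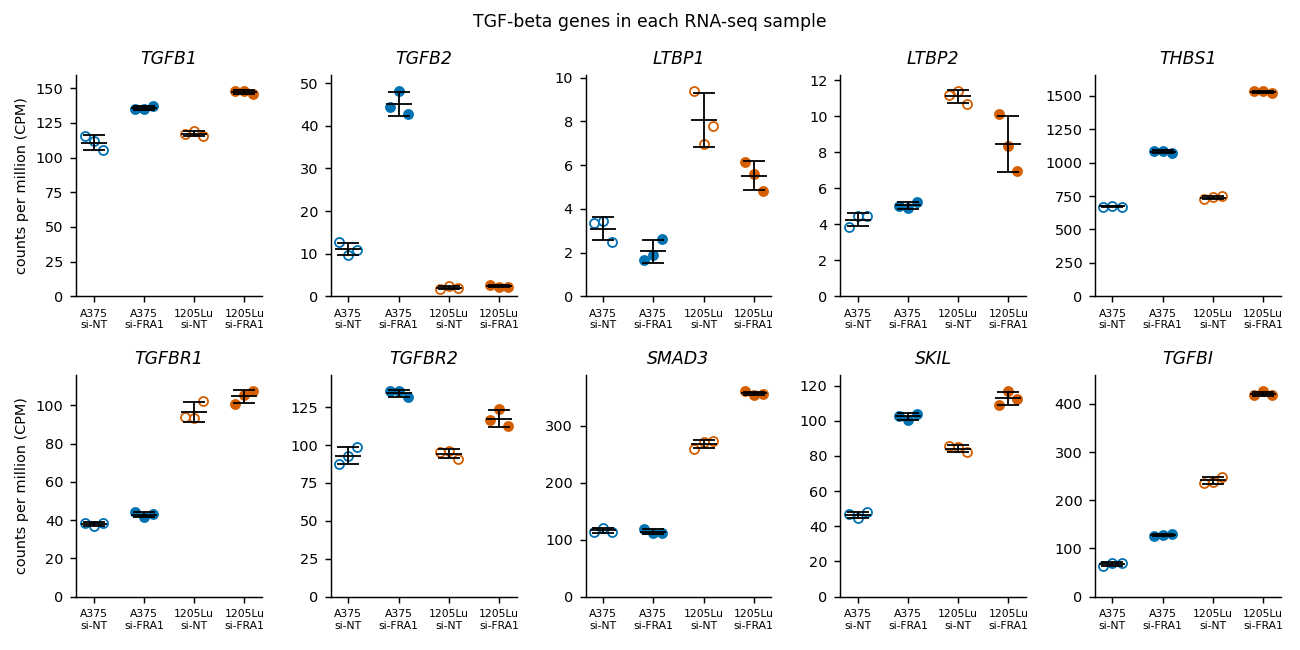
Expression of the 10 TGF-β genes in CPM (y axis, from 0) in each of the 12 RNA-seq samples, with blue for A375, orange for 1205Lu, open circles for si-NT and filled circles for si-FRA1, and with black bars for the mean and SD of 3 samples. THBS1 and TGFBI were higher in all si-FRA1 samples of both lines, while TGFB2 was higher in all si-FRA1 samples of A375 cells and stayed between 1.69 and 2.58 CPM in 1205Lu cells.

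Among the ligands, TGFB1 encodes the most widely expressed TGF-β. In the A375 si-NT samples it was at 115.2, 112.0 and 105.2 CPM and in the A375 si-FRA1 samples at 135.3, 134.9 and 137.2 CPM. In 1205Lu cells the values were 116.8, 119.0 and 115.8 CPM with si-NT, against 147.7, 148.0 and 145.7 CPM with si-FRA1. The groups did not overlap in either line. The log2 fold change of TGFB1 was 0.29 in A375 cells (SE 0.0331, adjusted p = 9.1e-08, edgeR) and 0.31 in 1205Lu cells (SE 0.0293, adjusted p = 3.4e-08, edgeR). In GENCODE v44 this gene spans chr19:41301587-41353922 on the minus strand, whereas RefSeq places TGFB1 at chr19:41330323-41353922, so reads of longer transcripts in the region may be counted in this row.

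TGFB2 (chr1:218345336-218444619, plus strand), a second TGF-β ligand, had the largest change of the 10 genes. It was at 12.7, 9.72 and 10.9 CPM in the A375 si-NT samples and at 44.4, 48.2 and 42.7 CPM in the A375 si-FRA1 samples. In 1205Lu cells it was at 1.69, 2.49 and 1.93 CPM with si-NT and at 2.58, 2.14 and 2.24 CPM with si-FRA1. The A375 groups lay far apart, while the 1205Lu groups overlapped at between 47 and 56 counts per sample. TGFB2 rose 4.06-fold in A375 cells (log2 fold change 2.02, SE 0.0773, adjusted p = 2.0e-16, edgeR). In 1205Lu cells its log2 fold change was 0.18 (95% interval -0.31 to 0.67, adjusted p = 0.59, edgeR), and a change larger than this interval was not seen at this depth.

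The latent TGF-β binding proteins had low counts. After silencing, LTBP1 was lower in both lines and LTBP2 was lower in 1205Lu cells. LTBP1 (chr2:32946953-33399509), which binds the latent ligand, was at 3.34, 3.44 and 2.48 CPM in A375 si-NT samples and at 1.65, 1.88 and 2.63 CPM in A375 si-FRA1 samples. The 1205Lu samples were at 9.39, 6.97 and 7.80 CPM with si-NT and at 6.13, 5.57 and 4.82 CPM with si-FRA1. The groups overlapped in A375 cells and not in 1205Lu cells. LTBP1 fell by 0.60 on the log2 scale in A375 cells (SE 0.231, adjusted p = 0.033, edgeR) and by 0.57 in 1205Lu cells (SE 0.149, adjusted p = 0.0042, edgeR). The A375 call was lost without a filter on low counts (adjusted p = 0.078, edgeR) and when si-NT replicate 1 or 2 or si-FRA1 replicate 1 or 2 was left out (log2 fold change between -0.55 and -0.46, adjusted p between 0.083 and 0.14, edgeR).

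LTBP2 (chr14:74498183-74612378, minus strand) encodes a related matrix protein that is not known to bind latent TGF-β. It was at 3.84, 4.43 and 4.47 CPM in A375 si-NT samples and at 5.02, 4.88 and 5.26 CPM in A375 si-FRA1 samples. In 1205Lu cells it was at 11.2, 11.4 and 10.7 CPM with si-NT and at 10.1, 8.33 and 6.97 CPM with si-FRA1. The groups did not overlap in either line, with the si-FRA1 samples above in A375 cells and below in 1205Lu cells. For LTBP2 the log2 fold change in A375 cells was 0.24 (95% interval -0.07 to 0.55, adjusted p = 0.19, edgeR), and the gene fell by 0.41 on the log2 scale in 1205Lu cells (SE 0.128, adjusted p = 0.015, edgeR). Without 1205Lu si-FRA1 replicate 3 the latter was -0.28 (adjusted p = 0.11, edgeR).

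THBS1 (chr15:39581079-39599466), which encodes thrombospondin-1, an activator of latent TGF-β, was measured with the smallest error. It was at 670.2, 676.9 and 669.7 CPM in A375 si-NT samples and at 1084, 1091 and 1073 CPM in A375 si-FRA1 samples. The 1205Lu values were 727.6, 740.5 and 749.2 CPM with si-NT, against 1533, 1537 and 1522 CPM with si-FRA1. Silencing separated the groups in both lines. THBS1 rose 1.6-fold in A375 cells (log2 fold change 0.68, SE 0.0156, adjusted p = 1.3e-20, edgeR) and 2.05-fold in 1205Lu cells (log2 fold change 1.03, SE 0.0148, adjusted p = 1.4e-20, edgeR).

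The receptors rose by less. TGFBR1 (chr9:99104038-99154192) encodes the type I receptor and averaged 38.0 ± 1.02 CPM with si-NT, against 42.9 ± 1.19 CPM with si-FRA1 in A375 cells (SD, n = 3). In 1205Lu cells it averaged 96.4 ± 5.07 and 104.7 ± 3.40 CPM (SD, n = 3), with overlapping groups. The log2 fold change of TGFBR1 was 0.17 in A375 cells (SE 0.0502, adjusted p = 0.0060, edgeR) and 0.10 in 1205Lu cells (SE 0.0387, adjusted p = 0.043, edgeR). The 1205Lu call was lost when genes needed at least 10 counts in every sample (adjusted p = 0.056, edgeR) and without si-NT replicate 1 or 2 or si-FRA1 replicate 2 or 3 (adjusted p between 0.086 and 0.14, edgeR).

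TGFBR2 (chr3:30606601-30694142), the type II receptor that binds the ligand first, was at 87.8, 92.7 and 98.9 CPM in A375 si-NT samples and at 135.6, 135.5 and 131.7 CPM in A375 si-FRA1 samples. The 1205Lu samples were at 95.7, 96.4 and 91.1 CPM with si-NT and at 116.4, 124.0 and 112.4 CPM with si-FRA1. The groups did not overlap in either line. TGFBR2 rose by 0.52 on the log2 scale in A375 cells (SE 0.0371, adjusted p = 2.5e-11, edgeR) and by 0.30 in 1205Lu cells (SE 0.0386, adjusted p = 2.4e-06, edgeR).

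SMAD3 (chr15:67063763-67195173), which carries the receptor signal to the nucleus, was at 112.9, 121.0 and 113.8 CPM in A375 si-NT samples and at 119.0, 110.9 and 112.0 CPM in A375 si-FRA1 samples. In the other line it was at 259.7, 270.6 and 273.7 CPM with si-NT and at 360.2, 354.0 and 354.8 CPM with si-FRA1. The A375 groups overlapped and the 1205Lu groups did not. The log2 fold change of SMAD3 was -0.03 in A375 cells (95% interval -0.10 to 0.05, adjusted p = 0.54, edgeR) and 0.39 in 1205Lu cells (SE 0.0232, adjusted p = 3.0e-11, edgeR). SKIL (chr3:170357342-170396835) encodes SnoN, a repressor of SMAD-driven transcription that is itself a TGF-β target. It was at 46.9, 44.8 and 47.9 CPM in A375 si-NT samples and at 102.8, 100.5 and 104.1 CPM in A375 si-FRA1 samples. The 1205Lu values were 85.6, 85.0 and 82.0 CPM with si-NT, against 108.9, 116.8 and 112.4 CPM with si-FRA1. With si-FRA1 the A375 samples thus came close to the 1205Lu samples. SKIL rose 2.20-fold in A375 cells (log2 fold change 1.13, SE 0.0399, adjusted p = 4.1e-17, edgeR) and 1.32-fold in 1205Lu cells (log2 fold change 0.40, SE 0.0355, adjusted p = 1.3e-08, edgeR).

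TGFBI (chr5:136028988-136063818), a secreted matrix protein named for its induction by TGF-β, was at 63.0, 69.3 and 69.1 CPM in A375 si-NT samples and at 126.2, 128.2 and 128.9 CPM in A375 si-FRA1 samples. The 1205Lu samples were at 236.5, 237.7 and 248.9 CPM with si-NT and at 418.4, 426.3 and 418.9 CPM with si-FRA1. The groups did not overlap in either line, and the A375 si-FRA1 samples stayed below the 1205Lu si-NT samples. TGFBI rose 1.89-fold in A375 cells (log2 fold change 0.92, SE 0.0376, adjusted p = 6.5e-16, edgeR) and 1.73-fold in 1205Lu cells (log2 fold change 0.79, SE 0.0223, adjusted p = 4.3e-16, edgeR).

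**Figure D2:**
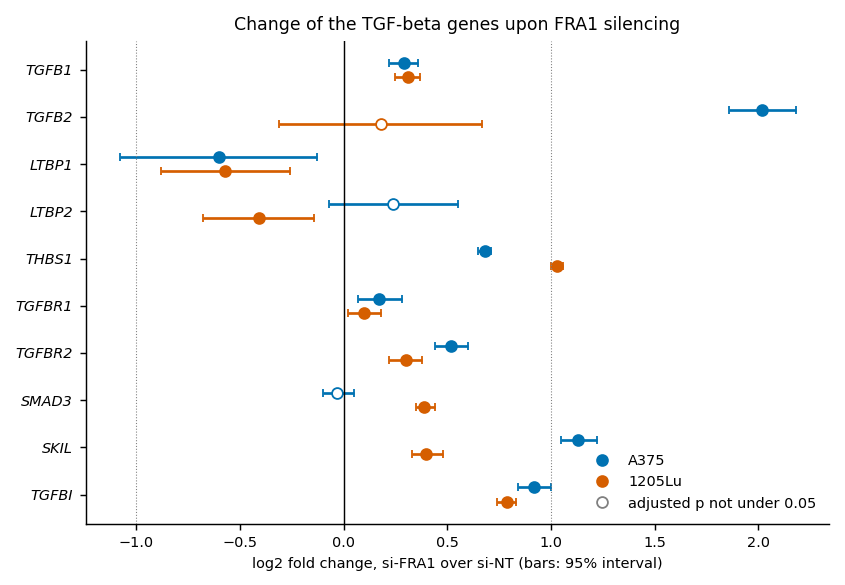
Log2 fold change of si-FRA1 over si-NT (x axis) for the 10 TGF-β genes in A375 (blue) and 1205Lu (orange) cells, with 95% intervals as bars, filled circles for an adjusted p under 0.05 and dotted lines at 2-fold. TGFB2 in A375 cells stood at 2.02, and LTBP1 was below 0 in both lines.

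A line-by-treatment interaction term, fitted over the 12 RNA-seq samples, compared the response between the lines, given as the A375 change minus the 1205Lu change. The rise was larger in A375 cells for TGFB2, SKIL, TGFBR2 and TGFBI, and the change was more positive in 1205Lu cells for SMAD3 and THBS1. For LTBP2 the difference was positive because its change was 0.24 in A375 cells, where it did not pass the test, and -0.41 in 1205Lu cells. Of the 10 genes 7 were called, beside 31.9% of the 19452 genes tested. The difference was 1.82 for TGFB2 (SE 0.210, adjusted p = 1.4e-07, edgeR), 0.72 for SKIL (SE 0.0529, adjusted p = 5.3e-11, edgeR) and 0.64 for LTBP2 (SE 0.193, adjusted p = 0.012, edgeR). For SMAD3 it was -0.43 (SE 0.0437, adjusted p = 1.5e-08, edgeR) and for THBS1 -0.36 (SE 0.0220, adjusted p = 1.5e-12, edgeR). TGFBR2 differed by 0.21 (SE 0.0575, adjusted p = 0.0060, edgeR). The difference for TGFBI was 0.12 (SE 0.0436, adjusted p = 0.034, edgeR) and was called in 9 of 17 fits, that one included, while the other 6 genes were called in all 17. Its call was lost without a filter on low counts and when A375 si-NT replicate 1, A375 si-FRA1 replicate 2 or 3, 1205Lu si-NT replicate 3 or any 1205Lu si-FRA1 replicate was left out (differences between 0.07 and 0.12). The FOSL1 mRNA itself fell by 4.01 on the log2 scale in A375 cells and fell by 2.84 in 1205Lu cells (difference -1.19, SE 0.0443, adjusted p = 1.2e-16, edgeR), and its part in these differences was not tested.

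With si-NT, the lines differed in the level of most of these genes. TGFB2 was 5.49-fold higher in A375 cells (log2 fold change 2.46, SE 0.138, adjusted p = 1.7e-14, edgeR). Lower in A375 cells by over 2-fold were TGFBI (log2 fold change -1.84, SE 0.0322), LTBP1 (-1.39, SE 0.182), LTBP2 (-1.38, SE 0.136), TGFBR1 (-1.35, SE 0.0445) and SMAD3 (-1.21, SE 0.0312), with adjusted p of at most 1.9e-07 in edgeR's test. These 5 genes stand beside 20.9% of the genes tested that were lower in A375 cells by this rule, and TGFB2 beside 19.7% that were higher. TGFBR2 had a log2 difference of -0.02 between the lines (95% interval -0.11 to 0.07, adjusted p = 0.67, edgeR).

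Levels were also divided by the merged length of all exons of each gene in GENCODE v44. This length takes in every annotated transcript, and was 3.26 kb for TGFB1 and 7.72 kb for TGFBI. The order of the genes thus depends on the annotation. THBS1 had the highest level by this measure in every group. It was at 73.4 CPM per kb in A375 si-NT samples and 80.7 CPM per kb in 1205Lu si-NT samples. TGFB1 came second with si-NT in both lines, at 33.9 and 35.9 CPM per kb. TGFBI rose from 31.2 CPM per kb with si-NT to 54.6 CPM per kb with si-FRA1 in 1205Lu cells, where it stood above TGFB1 at 45.1 CPM per kb. At the lower end were LTBP2 and LTBP1, at 0.468 and 0.420 CPM per kb in A375 si-NT samples, where the samples of these neighbours overlapped, and at 1.22 and 1.1 CPM per kb in 1205Lu si-NT samples, where they overlapped too. TGFB2 was the lowest in 1205Lu si-NT samples, at 0.337 CPM per kb. It passed TGFBR1 upon silencing in A375 cells, at 7.45 against 5.37 CPM per kb. The other neighbours whose samples overlapped were SKIL and TGFBR1, at 13.9 and 13.1 CPM per kb, and LTBP2 and LTBP1, at 0.932 and 0.749 CPM per kb, both in 1205Lu si-FRA1 samples.

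For each of the 10 genes, the protein-coding gene with the most similar pattern over the 12 RNA-seq samples was sought among genes with a mean of at least 10 CPM, by Pearson's r of log2(CPM + 1). These were AHR for TGFB1 (r = 0.981), TTC17 for TGFB2 (0.996), PBX3 for LTBP1 (0.977), IBTK for LTBP2 (0.983), ERCC6 for THBS1 (0.995), C11orf58 for TGFBR1 (0.998), FRS2 for TGFBR2 (0.974), FGFR1 for SMAD3 (0.999), NQO1 for SKIL (0.993) and DYRK1A for TGFBI (0.998). The samples fall into 4 groups of replicates, so r mainly describes 4 group levels, and it was the highest of at least 9207 values for each gene.

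Other genes of the pathway also moved mainly upward. Of 57 further genes in 5 lists, 51 were tested in each line. In A375 cells 29 rose, 8 fell and 14 did not pass the test, beside 25.7% of all genes tested called higher and 25.1% called lower, with a median log2 fold change of 0.30. In 1205Lu cells 36 rose, 4 fell and 11 did not pass, beside 20.6% called higher and 19.9% called lower, with a median of 0.30. The median over all genes tested was 0.00 in each line. These shares of all genes are also the ones to set beside the counts of each list that follow. A TGF-β list had been seen to move with silencing in these data before the lists were written, so they are not independent evidence of a direction.

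Of the other ligands 1 of 3 tested rose in A375 cells and none fell, near the share of all genes called higher there, while 2 of 4 fell in 1205Lu cells and none rose. INHBA, which encodes a subunit of activin, rose in A375 cells, from 79.5 ± 2.50 to 174.1 ± 3.37 CPM (SD, n = 3), and was at 7.0 ± 0.274 and 6.27 ± 0.427 CPM in 1205Lu cells (SD, n = 3), where it did not pass the test. Its log2 fold changes were 1.13 (SE 0.0319, adjusted p = 7.9e-19, edgeR) and -0.17 (SE 0.132, adjusted p = 0.33, edgeR). GDF11, an activin-like ligand, fell by 0.25 on the log2 scale in 1205Lu cells (SE 0.0618, adjusted p = 0.0030, edgeR) and had 0.06 in A375 cells (adjusted p = 0.30, edgeR).

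Among 9 tested genes of the latent complex and its activation, 6 rose and 2 fell in A375 cells, and 7 rose and 1 fell in 1205Lu cells. ITGAV, the alpha-V integrin that pulls latent TGF-β open, rose by 0.77 on the log2 scale in A375 cells (SE 0.0382, adjusted p = 2.7e-14, edgeR) and by 0.29 in 1205Lu cells (SE 0.0285, adjusted p = 6.7e-08, edgeR). NRROS, a membrane anchor of latent TGF-β, was at most 1.63 CPM and did not pass the test, with log2 fold changes of -0.60 (adjusted p = 0.16, edgeR) and -0.62 (adjusted p = 0.44, edgeR). Among the other receptors 5 of 8 tested rose in A375 cells and none fell, and 4 of 7 rose and 1 fell in 1205Lu cells. TGFBR3, the co-receptor betaglycan that presents TGF-β2 to the type II receptor, rose by 0.97 in A375 cells (SE 0.137, adjusted p = 2.3e-06, edgeR) and by 0.98 in 1205Lu cells (SE 0.0578, adjusted p = 3.1e-11, edgeR) on the log2 scale.

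Of 15 SMADs and regulators 9 rose and 3 fell in A375 cells, and 13 rose and none fell in 1205Lu cells. SMAD7, an inhibitory SMAD that TGF-β induces, went from 2.17 ± 0.497 to 7.39 ± 1.14 CPM in A375 (SD, n = 3) and 4.25 ± 0.499 to 9.11 ± 1.11 CPM in 1205Lu cells (SD, n = 3). The log2 fold changes of SMAD7 were 1.76 (SE 0.179, adjusted p = 1.2e-08, edgeR) and 1.08 (SE 0.149, adjusted p = 5.9e-06, edgeR). Of 16 tested further targets 8 rose and 3 fell in A375 cells, and 12 rose and none fell in 1205Lu cells. CDKN1A, the cell cycle inhibitor p21, rose by 1.09 (SE 0.0223, adjusted p = 1.8e-21, edgeR) and 0.76 (SE 0.0265, adjusted p = 1.1e-14, edgeR), and ID1, an inhibitor of differentiation factors, by 1.62 (SE 0.0859, adjusted p = 1.1e-13, edgeR) and 0.38 (SE 0.105, adjusted p = 0.0060, edgeR), all on the log2 scale. JUNB, an AP-1 subunit, rose by 0.97 (SE 0.0515, adjusted p = 1.1e-13, edgeR) in A375 cells and by 1.01 (SE 0.0627, adjusted p = 6.5e-11, edgeR) in 1205Lu cells. CCN1, a matricellular protein named here after its values were seen, went against this, since it fell by 0.94 in A375 cells (SE 0.0269, adjusted p = 9.6e-19, edgeR) and rose by 0.81 in 1205Lu cells (SE 0.0418, adjusted p = 3.9e-12, edgeR) on the log2 scale. COL1A1, one of the fibroblast markers given above, is also one of these targets.

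**Figure D3:**
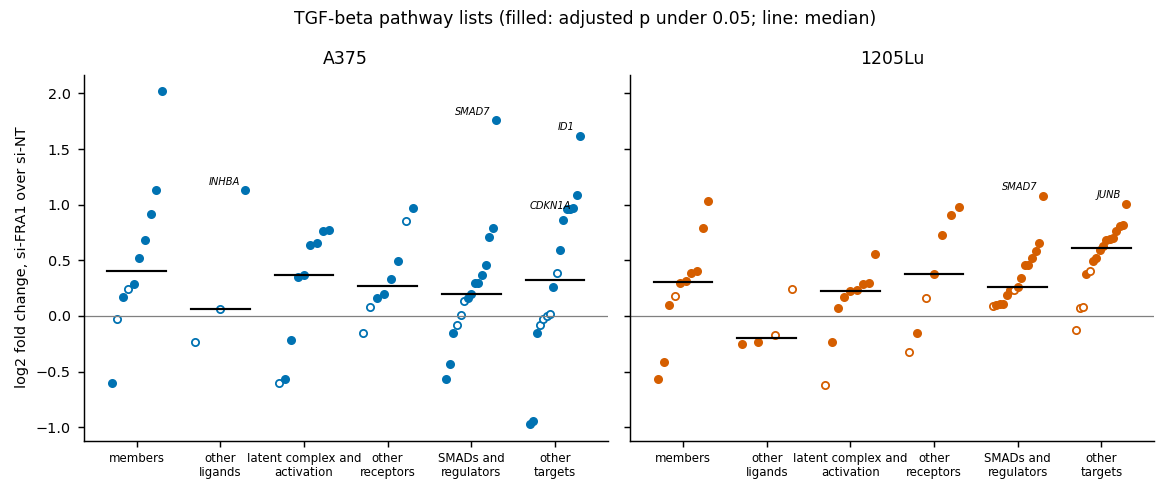
Log2 fold change of si-FRA1 over si-NT (y axis) for the 10 genes described above (members) and for 5 lists of further pathway genes in A375 (left) and 1205Lu (right) cells, with filled circles for an adjusted p under 0.05, open circles for the rest and a black line for the median of each list. Genes past 2-fold in the further lists are named, with SMAD7 at 1.76 in A375 and 1.08 in 1205Lu cells.

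Cut&Run releases the DNA beside an antibody-bound protein, and the values here are read counts in each of the consensus peaks that the authors defined. FRA1 samples of A375 cells held 3354095, 5316527 and 4256577 counts in all peaks, and the A375 IgG sample held 383994. In 1205Lu cells the FRA1 samples held 583750, 897407 and 781542 counts and the IgG sample 314569. FRA1 totals over the IgG total thus ranged from 8.73 to 13.8 in A375 and from 1.86 to 2.85 in 1205Lu cells. The counts of 1205Lu FRA1 replicates 2 and 3 agreed within sampling noise, with a ratio of chi-square to its degrees of freedom of 1.01. The other 1205Lu pairs had 1.49 and 1.64. The A375 FRA1 pairs had 1.07, 1.1 and 1.25, so ratios near 1 were not limited to this 1205Lu pair. 1205Lu replicates 2 and 3 may be one library, and their average was counted as 1 sample in each mean ± SD (n = 2).

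Enrichment was read from unscaled counts, without a test because of the single IgG sample. A peak counted as enriched where no FRA1 sample of the line fell below 10 counts or below 4-fold of the IgG value, to which 1 had been added. Near the 10 genes, 48 of 60 peaks (80.0%) were enriched in A375 cells, beside 57.4% of all peaks. In 1205Lu cells 9 of 60 (15%) were enriched, beside 7.09% of all peaks. All 9 were also enriched in A375 cells, as were 2453 of all 3871 peaks enriched in 1205Lu cells. Peaks enriched in both lines were thus 9 of 60 (15%), beside 4.5% of all peaks. Without 1205Lu FRA1 replicate 1, the one with the fewest counts, 18 were enriched in 1205Lu cells. With every sample, IgG included, scaled to the same total in peaks, none of the 60 was enriched in A375 cells and 2 were in 1205Lu cells. This scaling also removes the excess of FRA1 over IgG in the totals, so it cannot tell depth from enrichment. For these alternatives the share of all peaks was not computed. The peaks near these genes were wider than the rest, with a median width of 885 against 715 bp.

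Most of the 60 peaks lay away from the main start of the gene. By the GENCODE v44 annotation, 20 were within 3 kb of an annotated transcript start of the gene, which can be that of a shorter transcript, 31 were intronic, and 9 lay outside the gene. SMAD3 had 13 peaks, LTBP1 12, LTBP2 10, TGFBR2 8, TGFBI 5, TGFB1 4, TGFB2 and THBS1 3 each, and TGFBR1 and SKIL 1 each. The peaks at TGFBR1 and SKIL were at the promoter and did not pass the enrichment rule in either line. Enriched peaks in 1205Lu cells were 3 at TGFBI, 2 at LTBP1 and 1 each at TGFB1, TGFBR2, SMAD3 and LTBP2.

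The intronic peak of TGFB2 whose AP-1 window is printed above (chr1:218376956-218378092) lies 32188 bp from the start of the gene. It had 204, 298 and 259 FRA1 counts and 25 IgG counts in A375 cells. In 1205Lu cells it had 9, 5 and 3 FRA1 counts and 5 IgG counts, around the background. A second intronic peak at chr1:218380179-218381023 had 109, 141 and 128 FRA1 counts against 12 IgG counts in A375 cells and 3 in each of the 4 samples of 1205Lu cells. TGFB2, which rose upon silencing in A375 cells and did not pass the test in 1205Lu cells, had no enriched peak in the latter.

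The strongest TGFBR2 peak (chr3:30658419-30660243) is intronic and had 488, 730 and 590 FRA1 counts against 20 IgG counts in A375 cells and 60, 103 and 77 FRA1 counts against 7 IgG counts in 1205Lu cells. It holds 3 AP-1 matches, one of them 13 bp from the centre. At SMAD3, an intronic peak (chr15:67149606-67150958) had 435, 594 and 551 FRA1 counts against 19 IgG counts in A375 cells and 171, 330 and 269 FRA1 counts against 16 IgG counts in 1205Lu cells. This was the highest count among all 60 peaks in 1205Lu cells. At TGFBI, a peak inside the gene (chr5:136058139-136059149) had 285, 444 and 384 FRA1 counts against 9 IgG counts in A375 cells and 53, 118 and 108 FRA1 counts against 9 IgG counts in 1205Lu cells. All 3 peaks were enriched in both lines.

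THBS1, which rose in both lines, had a broad peak over its promoter (chr15:39579061-39581824) with 147, 285 and 199 FRA1 counts against 28 IgG counts in A375 cells and 27, 51 and 44 FRA1 counts against 13 IgG counts in 1205Lu cells. It passed the enrichment rule in A375 cells only, and no AP-1 letters were found in it. The promoter peak of SKIL (chr3:170356778-170358233) had 53, 93 and 49 FRA1 counts against 14 IgG counts in A375 cells and 32, 22 and 28 against 14 in 1205Lu cells. The promoter peak of TGFBR1 (chr9:99104706-99105601) had 23, 44 and 20 FRA1 counts against 8 IgG counts in A375 cells and 12, 9 and 11 against 12 in 1205Lu cells. Neither holds AP-1 letters.

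For TGFB1 the highest A375 count was in a peak at chr19:41321658-41322648, with 272 ± 32.2 FRA1 counts (SD, n = 3) against 10 IgG counts. It lies inside the GENCODE model but outside the RefSeq span of TGFB1, and 1925 bp from a start of CCDC97. The highest 1205Lu count was in a peak upstream of the gene at chr19:41363827-41364293, which covers a start of B9D2, with 67.5 ± 13.4 FRA1 counts (SD, n = 2) against 8 IgG counts. At LTBP1 an intronic peak (chr2:33069504-33071128) had 312 ± 58.0 FRA1 counts in A375 (SD, n = 3) and 55.2 ± 21.6 in 1205Lu cells (SD, n = 2), against 16 and 9 IgG counts. Upstream of LTBP2, a peak at chr14:74619396-74621088 had 124 ± 24.8 (SD, n = 3) and 42.2 ± 27.2 (SD, n = 2) FRA1 counts against 13 and 10 IgG counts.

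**Figure D4:**
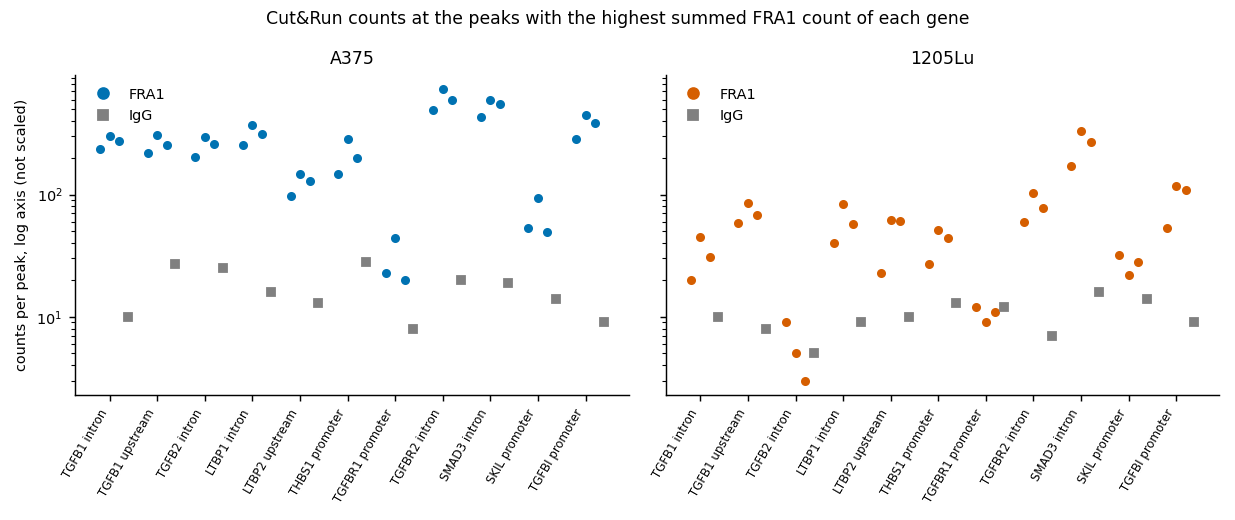
Unscaled Cut&Run counts (y axis, log scale) of each FRA1 sample (circles) and the IgG sample (grey squares) in A375 (left) and 1205Lu (right) cells, at the peak with the highest summed FRA1 count of each gene (for TGFB1, the highest of each line), labelled by gene and place. FRA1 counts at the TGFB2 intron were 204 to 298 in A375 cells and 3 to 9 in 1205Lu cells, around the IgG count of 5.

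The AP-1 letters lay in 37 of the 60 peaks (61.7%) and within 100 bp of the centre in 26 (43.3%), beside 57.7% and 28.6% of all 54563 peaks. Among all peaks enriched in A375 cells, whose median width of 848 bp is closer to that of these 60, the shares were 70.0% and 34.0%. Only 48 of the 60 were themselves enriched in A375 cells, so these sets are unlike and no direction is read from them. Of the 9 peaks enriched in both lines 6 held the letters (66.7%), beside 81.4% of all peaks enriched in both. The CRE sequence TGACGTCA, bound by ATF and some AP-1 dimers, was in 2 of 60 (3.33%), beside 1.33% of all peaks. The palindromic SMAD sequence GTCTAGAC was in none of the 60, beside 0.52% of all peaks. The TEAD sequence GGAATGT or its reverse complement was in 13 (21.7%), beside 17.7% of all peaks. These shares are given without a test, and the wider peaks near these genes hold more letters. In RefSeq promoter windows of GRCh38.p14 around gene starts, the AP-1 letters were found for TGFBR2 and SMAD3, 2 of 10 genes. They were in 4.95% of all 35116 windows, a share of windows and not of genes, so the 2 values are not compared. The match of TGFBR2 is at chr3:30606595-30606601, inside its promoter peak at chr3:30605850-30607125. That peak was enriched in A375 cells with 125, 202 and 148 FRA1 counts against 19 IgG counts.

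FRA1 counts were compared between the lines with edgeR's quasi-likelihood test on the 6 FRA1 samples, after TMM scaling, so that a value says how a peak ranks against the other peaks of the same libraries. Peaks with more counts in A375 cells before scaling can thus have more in 1205Lu cells after it. Of the 60 peaks 55 were tested, of which 13 were higher in A375 cells and 23 higher in 1205Lu cells at an adjusted p under 0.05, beside 34.5% and 28.1% of the 45588 peaks tested. The IgG samples were not part of this test, and only 9 of the 60 peaks were enriched in 1205Lu cells. A peak called higher in 1205Lu cells can thus lie near the background there. This test counted 1205Lu FRA1 replicates 2 and 3 as separate samples, and with both as 1 sample 13 were higher in A375 cells and 24 higher in 1205Lu cells. The median log2 fold change of all peaks, A375 over 1205Lu, was 0.27.

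The genes differed in the direction of their peaks. Of the 3 TGFB2 peaks 2 were higher in A375 cells, with log2 fold changes of 2.79 (SE 0.291) and 2.7 (SE 0.365). Both were enriched in A375 cells and not in 1205Lu cells. The third did not pass the test (0.43, SE 0.541, adjusted p = 0.50, edgeR). The TGFB2 mRNA had a difference of 2.46. All 5 TGFBI peaks were higher in 1205Lu cells, with log2 fold changes between -2.07 and -0.65, beside an mRNA difference of -1.84. At SMAD3 8 of 13 peaks were higher in 1205Lu cells and 1 was higher in A375 cells, beside an mRNA difference of -1.21. In 1205Lu cells 3 of the 5 TGFBI peaks and 1 of the 13 SMAD3 peaks passed the enrichment rule. TGFBR2, with an mRNA difference of -0.02, had 4 peaks higher in A375 cells and 1 higher in 1205Lu cells, and its strongest peak did not pass the test (log2 fold change 0.24, SE 0.159, adjusted p = 0.20, edgeR). That peak was called higher in A375 cells with library totals in place of TMM (0.41, adjusted p = 0.0022, edgeR) and without A375 FRA1 replicate 2 (0.38, adjusted p = 0.041, edgeR). LTBP1 and LTBP2, both lower in A375 cells at the mRNA, had peaks in both directions, with 2 and 3 higher in A375 cells and 4 and 2 higher in 1205Lu cells. The promoter peaks of TGFBR1 (log2 fold change -1.24, SE 0.355) and SKIL (-1.44, SE 0.242) were called higher in 1205Lu cells after scaling. Neither passed the enrichment rule in either line, so these 2 values are not read as a difference in FRA1 binding. The promoter peak of THBS1 had -0.33 (SE 0.180, adjusted p = 0.11, edgeR). Without 1205Lu FRA1 replicate 1 the value was -0.64 for THBS1 (adjusted p = 0.0010, edgeR), -0.64 for the intronic LTBP1 peak, against -0.30 with it, -1.07 for the strongest TGFBI peak, against -0.68, and -0.04 for the strongest TGFBR2 peak. TGFB1 had 1 peak called in each direction. Peaks of 1 gene share its neighbourhood and the libraries, so these are side-by-side values and no test relates binding to expression.

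**Figure D5:**
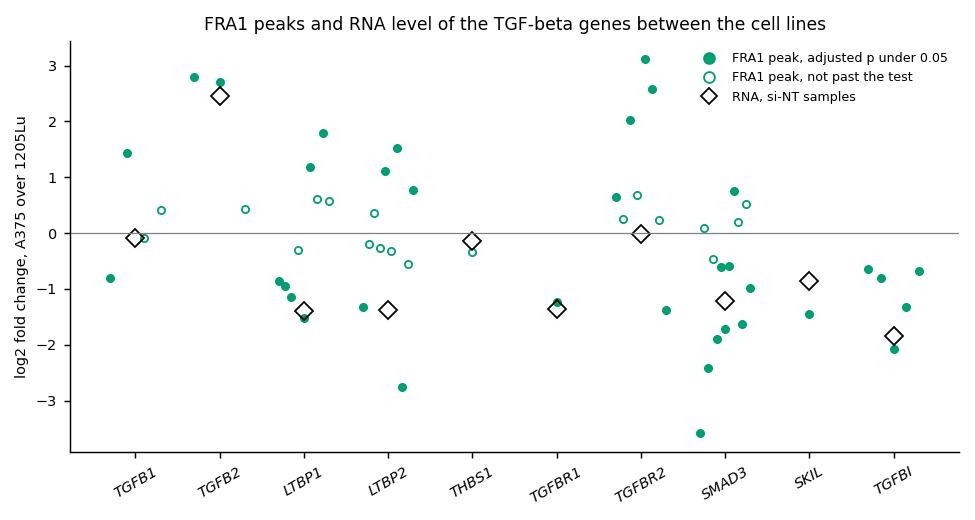
Log2 fold change of A375 over 1205Lu cells (y axis) for each of the 55 tested FRA1 peaks near the 10 genes (circles, ordered along the gene, filled for an adjusted p under 0.05) and for the mRNA in si-NT samples (diamonds). TGFB2 peaks and mRNA lie above 0, and all 5 TGFBI peaks and its mRNA lie below 0.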

How the data were processed

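RNA was sequenced in 12 samples and Cut&Run was run in 8. Per the labels and the study's methods, the authors trimmed adapters with cutadapt 1.8.1, aligned RNA reads to GRCh38 with STAR 2.7.7a and estimated gene values with RSEM 1.3.0 on Gencode v30. The deposited expected counts are whole numbers and were not normalized. For Cut&Run, the authors aligned reads with Bowtie2 2.4.1, called peaks with MACS2 2.1.1.20160309 and merged these to a consensus set. The deposited values are read counts per peak, and whether peaks were called per sample is not given in the sources used here. The depth per sample is in the report, and its error covers counting and the spread between samples.

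Counts were fitted with edgeR 4.0.16 in R 4.3.3 (filterByExpr, TMM, glmQLFit and glmQLFTest, Benjamini-Hochberg adjustment over all features), 1 fit per cell line for silencing and 1 over the 12 RNA-seq samples for the interaction and the si-NT levels. CPM used the TMM library sizes of the 12 samples. Peak positions were read from the deposited peak names as 1-based, which may be off by 1 base, and all lay within the GRCh38 chromosomes. Genes were placed with GENCODE v44. The tests were checked on simulated data with known changes.

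The 10 genes, the pathway lists and the markers were chosen with earlier results of these data known. Named were the 10 genes, pathway genes past 2-fold in either line or with the largest change of their list, the gene most alike each of the 10, and for each gene the peaks with the highest summed FRA1 count in each line. The other TGFB2 peak, the TGFBR2 promoter peak, CCN1 and COL1A1 were added after their values were seen. Alternatives were DESeq2 1.42.0, upper-quartile normalization, other filters, a replicate block, 1 fit over all samples, other limits over IgG, other scaling, other distances and each sample left out. 1 listed gene is not reported here and was left out of the list counts.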

Additional observations from a re-analysis of the deposited data

Results flagged for a closer look

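The change upon silencing differed between the cell lines for 7 of the 10 TGF-β genes by the interaction test of edgeR over the 12 RNA-seq samples. As the A375 change minus the 1205Lu change on the log2 scale, the values were 1.82 for TGFB2, 0.72 for SKIL, 0.64 for LTBP2, 0.21 for TGFBR2, 0.12 for TGFBI, -0.36 for THBS1 and -0.43 for SMAD3. TGFB2 rested on between 47 and 56 counts per sample in 1205Lu cells, and the value for TGFBI was called in 9 of 17 fits. Among the other pathway genes named, the difference was 1.28 for INHBA, 1.22 for ID1, 0.67 for SMAD7 (adjusted p = 0.036), 0.47 for ITGAV, 0.32 for CDKN1A, 0.30 for GDF11 and -1.76 for CCN1, which changed in opposite directions in the lines. For the targeted gene FOSL1 it was -1.19, a larger fall in A375 cells. The part of the unequal fall of FOSL1 in these differences was not tested.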

How the results depend on the processing

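The counts of called TGF-β genes stayed within 1.5 times of the reported ones under every alternative tried. With each sample left out, between 7 and 8 genes were called in A375 cells and between 7 and 9 in 1205Lu cells. The same replicate numbers did not pair the samples (correlations of same-numbered deviations between -0.0410 and 0.0496), and a replicate block gave 8 and 9 called genes, 7 interactions and 35 peaks that differed between the lines, so it moved no count by over 1.5 times. The log2 fold change of SMAD3 in A375 cells lay between -0.06 and 0.00 when single samples were left out and changed sign at its upper end. That of the strongest TGFBR2 peak between the lines ranged from -0.04 to 0.40, the lowest value being that without 1205Lu FRA1 replicate 1, and the peak passed the test at 0.38 without A375 FRA1 replicate 2 and at 0.41 without TMM. The intronic TGFB1 peak (0.42, adjusted p = 0.059, edgeR) passed without TMM (0.59) and when 1 of the A375 FRA1 replicates or 1205Lu FRA1 replicate 2 was left out (0.47 to 0.68).

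The counts of peaks moved more. In A375 cells the 48 enriched peaks became 22 at 8 times IgG, 0 with samples scaled to the same total in peaks, 16 when a transcript start had to lie within 3 kb and 77 within 50 kb of the gene. In 1205Lu cells the 9 enriched peaks became 20 at 2 times and 1 at 8 times IgG, 2 with scaling, 1 within 3 kb of a start, 15 within 50 kb and between 9 and 18 with a FRA1 sample left out. The 36 peaks that differed between the lines became 14 and 58 under these distances, which change how many peaks are counted. The cause of the other shifts was not tested. Shares of all peaks were not computed under these alternatives, so the counts show only how far the calls depend on the rule. Library totals without TMM moved the median log2 fold change of all peaks from 0.27 to 0.45, and DESeq2 to 0.15. Low counts limit 1205Lu cells most, where the median count per peak of the FRA1 samples was 5 or 6, against 30 to 47 in A375 cells. Only counts in peaks were used, so sequencing depth and enrichment cannot be told apart here.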
